A study of Mus musculus with 12 samples.

Results

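Of 1270 unmodified genomic elements of 100 bp tested as enhancers in mouse retina, 217 were low upstream of both promoters used. They were chosen by their measured values. For each element, counts of all its barcodes and of 3 replicates were added up. The activity A was the log2 ratio of the element's share of cDNA counts to its share of DNA counts, minus the median of that ratio over all 14987 elements of the library. A low element had A under -0.2 on both promoters and an A on the Crx promoter minus A on the rhodopsin promoter between -0.4 and 1. The remaining 1053 unmodified elements are called the other elements, and 492 of them, with A above 0.2 on both promoters, the active elements. An A of 0 is the level of the typical element, not that of a promoter standing alone, which was not analysed here, so "low" is relative to that typical element.

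The assay was CRE-seq, in which each sequence stands upstream of a promoter and is read through short barcodes in the transcript of the reporter DsRed. The rhodopsin promoter (pRho) comes from the gene of the rod photoreceptor pigment, and the Crx promoter (pCrx) from the gene of the photoreceptor transcription factor CRX. Both groups were wild-type CD1 mice at postnatal day 0, whose whole retinas received 30 micrograms of a pRho or a pCrx plasmid library together with 30 micrograms of a GFP plasmid under the CAG promoter, and were cultured for 8 days. Each promoter had 3 biological replicates, each a pool of 5 retinas that gave both a cDNA and a DNA library, so the counts average over all cell types that took up and transcribed the plasmids. The libraries held barcode counts only, so retinal marker genes could not be checked.

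CRX and its relative OTX2 are homeodomain proteins with a lysine at residue 50 of the homeodomain; they prefer TAATCC and close relatives, called K50 sites. Homeodomain proteins with a glutamine there prefer TAATTA and relatives, called Q50 sites. Sites can stand alone as monomers, or as dimers of facing sites a few bases apart. CRX sites are common in photoreceptor enhancers, and sequences that hold them can activate or repress transcription depending on the neighbouring sites, for example those of the rod factor NRL or of neuronal E-box proteins. Besides their unmodified sequence, the 217 low elements were present as 1847 modified versions, most of them with a changed homeodomain site. Each version carried its own barcodes.

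The low elements were no poorer in homeodomain cores than the rest. To show what such sequences look like, a window of 30 bases with at least 1 TAAT core is given from each of the 6 elements with the lowest mean A over both promoters. The cores of either strand are in capitals.
chr4:53789056-53789155: cctaaactTAATcccccaaTAATcggATTA
chr4:53646714-53646813: agttgttaagtcccaatacaaagaggATTA
chr16:90132819-90132918: tagtgctgagaggatcattccgccgtTAAT
chr9:107580753-107580852: cactccttaagggtgttggatacaATTAAT
chr2:28068588-28068687: acATTAgccagggATTAgctTAATtgATTA
chr12:87894500-87894599: gctgggATTAagactgtggaATTAgcagag
Coordinates are mm9, 1-based, and the strand is that of the deposited element. No gene annotation of that build was used here, so the elements are given by position alone. The low elements lay on 20 chromosomes, with 19 on chromosome 4, where 101 unmodified elements lay in all. Compared by sequence with the RefSeq promoter windows of GRCm38.p6, 2 of the 217 shared at least 21 windows of 20 bases with a promoter: chr17:17371833-17371932 with Gm5165 and chr5:124644767-124644866 with Pitpnm2os2. The share was 0.922%, against 0.950% of the other elements.

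On pRho, A of the low elements ran from -3.15 to -0.23 with a median of -1.08, which is 2.12-fold below the typical element. On pCrx it ran from -2.89 to -0.21 with a median of -0.75, or 1.68-fold below. These values chose the elements and are a description. The deepest element, chr4:53789056-53789155, measured -3.10, -3.07 and -3.26 on pRho and -3.40, -2.66 and -2.80 on pCrx in replicates 1, 2 and 3. All of its replicates thus lay far below the typical element on either promoter. It rested on 4655 DNA and 388 cDNA counts on pRho and on 4692 and 369 on pCrx, from 7 barcodes. The neighbouring chr4:53646714-53646813 measured -2.98, -2.83 and -2.99 on pRho and -3.04, -2.77 and -2.33 on pCrx. Among the 6 deepest, chr16:90132819-90132918 was the least certain, at -2.82, -3.14 and -2.72 on pRho but -2.55, -3.49 and -1.51 on pCrx, from 169 cDNA counts. Its SD of 0.99 over replicates on pCrx was the largest of the 217.

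The median SD over replicates was 0.13 on pRho and 0.20 on pCrx. In every replicate, 217 elements were under 0 on pRho and 213 on pCrx, and 204 and 191 were under -0.2. Values under -1 were found for 124 elements on pRho and 73 on pCrx, and values under -2 for 22 and 13. Across the 217 elements, replicates correlated at r = 0.945 to 0.957 on pRho and at 0.819 to 0.843 on pCrx. Of the 217 elements, 157 were deeper on pRho, with a median difference of 0.26; the bounds of -0.4 and 1 on that difference admit more elements of this kind than of the opposite one. Across the low elements A on the 2 promoters correlated at Pearson's r = 0.80 and Spearman's rho = 0.71 (n = 217 elements); this is a description, since the rule bounded the difference and the barcodes and sequences are the same in both libraries.

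The limits of the rule cut through a continuum. Just inside lay chr8:4266980-4267079, at -0.54 on pRho and -0.21 on pCrx, and chr2:167903826-167903925, at -0.79 and -0.21. Just outside lay chr9:4376423-4376522, at -0.20 and -0.54, and chr5:97383192-97383291, at -0.92 and -0.20. Without the bounds on the promoter difference, 305 unmodified elements were under -0.2 on both promoters. Leaving out replicate 1, 2 or 3 gave 221, 213 or 217 low elements, of which 196, 198 and 201 were among the 217.

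**Figure D1:**
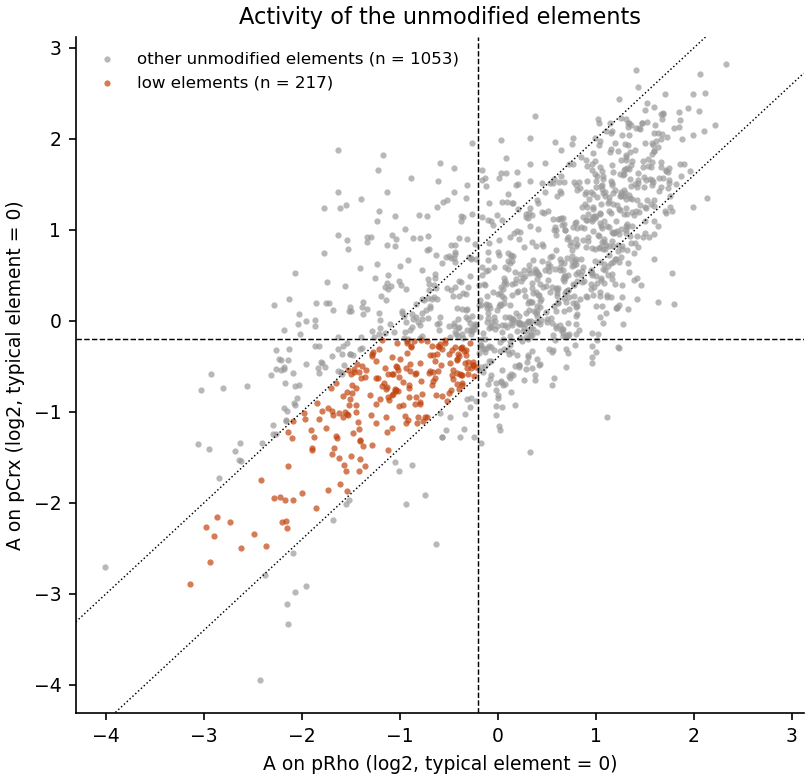
Activity A on pRho (x axis) and pCrx (y axis), both log2 with the typical element at 0, for the 1270 unmodified elements. Dashed lines mark -0.2 and dotted lines the bounds on the promoter difference; the 217 low elements fill the lower left band down to -3.15 on pRho and -2.89 on pCrx.

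Sequence content was compared with no test, as shares of elements holding a motif on either strand. Homeodomain cores were as common in low as in other elements: TAAT was in 95.4% of low and 93.2% of other elements, TAATCC in 63.1% and 63.8%, TAATCT in 31.3% and 29.3%, TAAGCC in 52 of 217 and 254 of 1053, and the Q50 core TAATTA in 6.45% and 6.65%. A low element held 2.12 ± 1.31 TAAT cores (SD, n = 217), against 1.96 ± 1.23 (SD, n = 1053). Their GC content was 48.0% ± 5.13 (SD), against 48.8% ± 5.75, a difference smaller than the spread within either group.

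Motifs of several other photoreceptor regulators were rarer in the low elements. The E-box of NEUROD type, CAGATG or CATATG, a site of neuronal bHLH factors, was in 5.53% of low, 12.4% of other and 17.7% of active elements. The core of the site of NRL, the leucine zipper factor of rods, TGCTGA, was in 6.91%, 13.7% and 15.0%. The nuclear receptor sequence AGGTCA was in 5.07%, 11.2% and 14.8%, and a MEF2 site in 0.922%, 2.85% and 4.67%. None of these 4 motifs was found in 179 of the 217 low elements, or 82.5%, against 65.6% of other and 57.1% of active elements. Any E-box (CANNTG, which includes the NEUROD type) was in 33.2% of low and 41.3% of other elements, and CCCTC in 21.7% and 31.5%. The SOX-type sequence ACAAAG was in 4.15% and 8.07%, and the SP-type GGGCGG in 0.922% and 2.75%. The ETS-type sequence GGAAGT went the other way, in 7.37% of low and 4.18% of other elements, as did TAATTG, in 10.1% and 7.69%. The SNAI-type E-box CAGGTG, a site of zinc finger repressors, was in 6.91% and 8.93%. Differences were small for the CRE-type sequence TGACGT, at 0.922% and 0.855%, for AP-1 sites, at 1.84% and 1.71%, and for a pair of facing TAAT cores 3 bp apart, at 3.23% and 2.66%.

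Over all 2073 distinct sequences of 6 bases, read on both strands, those most reduced in the low elements included 2 of the motifs above. TCAGCA, the NRL-type sequence read on the opposite strand, was in 6.91% against 13.7%, and AGGTCA in 5.07% against 11.2%. AAGCTG was in 14.3% against 22.0%, CCCCTC in 3.69% against 10.4%, CCTCCC in 11.1% against 17.4%, and AAATCC in 8.29% against 14.4%. The most enriched was TCTGAA, in 13.4% against 6.36%. CATCAG was in 11.5% against 5.41%, ATTATC in 16.6% against 10.7% and AATGGA in 9.22% against 3.70%. AGTGAT was in 9.68% against 4.18% and ACTCCT in 10.1% against 4.75%. Such a match is a description of letters and not of a bound site.

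The modified versions give a measure of the low sequences that the choice of the parents did not use, since each version has its own barcodes; it does share nearly all of its bases with the parent. Of the 1847 versions of low elements, 1742 (94.3%) were below the typical element on pRho, against 46.1% of all 13717 versions, by edgeR's quasi-likelihood test of cDNA against DNA with a Benjamini-Hochberg adjusted p under 0.05. On pCrx 1578 (85.4%) were below, against 39.2% of all. Both calls were made for 1533 versions, or 83.0%, against 29.2% of all. The median A of these versions was -1.15 on pRho and -0.71 on pCrx, against 0.17 and 0.10 for versions of other elements. Low activity thus recurred in separately barcoded copies. Every version was below the typical element for 191 of the 217 elements on pRho, 151 on pCrx and 147 on both, or 88.0%, 69.6% and 67.7%. The same shares were 38.5%, 28.2% and 18.99% of the 1048 other elements with versions. Among elements with 2 or more versions, every version was below on both promoters in 54.2% of 120 low and 9.005% of 633 other elements. The number of versions differed widely, from 1 for 97 elements to between 52 and 60 for 25 elements, and versions of 1 element are not independent.

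Few changes took a low element past the typical one. By the same test 47 versions (2.54%) were above it on pRho, against 42.8% of all versions, and 57 (3.09%) on pCrx, against 36.3%. With total-count scaling these counts were 26 and 27. The test takes its 0 from edgeR's TMM scaling of the libraries, which need not equal the median that sets A to 0. Both promoters made the call for 23 versions of 10 elements. For this joint call no share over all versions was worked out, so the 23 are a list only. Of these, 6 came from chr4:44041516-44041615 and 4 from chr13:104839111-104839210, both elements changed base by base, and 9 of the 23 were single-base changes in such a window. A dimer arm was changed in 3 and both arms in 2. In chr10:90484449-90484548 (parent at -0.80 on pRho and -0.90 on pCrx), the arm change A13C gave 0.49 and 0.42, and A13C with T19G gave 0.73 and 0.44. In chr15:102522981-102523080 (parent at -0.36 and -0.70), A52C gave 0.72 and 0.37. In chr7:88483532-88483631 (parent at -1.28 and -0.37), the change T36G in a K50 site gave 0.34 and 0.48. Such a token gives the unmodified base, its position, with the element's first base as 1, and the new base.

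Versions were also compared with their own parents, as the design intends. The parent's low value chose the element, so these calls are given beside the share over all versions and nothing is read from them. On pRho 502 versions (27.2%) were raised and 582 (31.5%) lowered, against 16.3% and 43.7% of all versions, by edgeR's test of the interaction of version and cDNA against DNA. On pCrx 528 (28.6%) were raised and 210 (11.4%) lowered, against 10.6% and 43.7%. A rise on both promoters was called for 296 versions (16.03%, against 5.28% of all) and a fall on both for 146 (7.90%, against 28.7%). The calls were opposite for 63 versions (3.41%, against 4.67%), of which 55 were lowered on pRho and raised on pCrx and 8 the reverse. With barcodes instead of replicate pools as the units, in limma, 164 and 205 versions were raised and lowered on pRho and 270 and 44 on pCrx. No share over all versions was worked out for that setting, so these counts show only how the calls depend on the unit.

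By class of change, the same comparison is likewise a description, and the parents' mean A differed between classes, from -1.18 on pRho and -0.89 on pCrx for single K50 losses to -1.43 and -1.19 for dimer arms. A single K50 site was lost in 236 versions of 161 low elements, which differed from the parent by -0.07 ± 0.64 (SD over versions) on pRho, and on pCrx by 0.25 ± 0.55. On pRho 59 were raised and 85 lowered, and on pCrx 71 and 18. Over all 1264 versions of that class, 16.5% were raised and 57.8% lowered on pRho, and 10.05% and 53.6% on pCrx. With all K50 sites lost (65 versions), the effect was 0.04 ± 0.77 on pRho, with 23 raised and 21 lowered, and 0.49 ± 0.78 on pCrx, with 28 raised and 2 lowered. Over all versions of that class 16.1% were raised and 68.4% lowered on pRho, and 12.2% and 62.0% on pCrx. Loss of a single Q50 site (44 versions) gave 0.06 ± 0.75 and 0.25 ± 0.70, with 18 raised on each promoter and 14 and 6 lowered. Over all such versions the shares were 21.8% and 41.9% on pRho and 17.5% and 37.6% on pCrx.

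Loss of 1 arm of a dimer site (68 versions of 32 elements) gave 0.29 ± 0.87 on pRho, with 29 raised and 17 lowered, and 0.72 ± 0.87 on pCrx, with 38 raised and 4 lowered. Of all such versions 25.6% were raised and 44.7% lowered on pRho, and 15.6% and 53.8% on pCrx. Loss of both arms (34 versions) gave 0.40 ± 0.87 and 0.80 ± 0.88, with 16 and 20 raised and 7 and 0 lowered. Over all 230 versions with both arms lost, the mean effect was -0.22 on pRho and -0.52 on pCrx, with 25.2% and 18.3% raised and 50% and 60.4% lowered. Insertions into the monomer windows (39 versions) gave 0.29 ± 0.50 and 0.32 ± 0.60, with 19 and 14 raised and 3 and 0 lowered, against 26.1% and 17.7% raised and 23.1% and 21.7% lowered of all. Both counts of 0 are from edgeR and were 0 also at an unadjusted p under 0.05, in DESeq2 and in limma over barcodes. Deletions in the dimer windows (69 versions) gave -0.29 ± 0.96 and 0.25 ± 0.69, with 13 raised and 32 lowered on pRho and 24 and 7 on pCrx. These were 18.8% and 46.4% on pRho, near the 19.2% and 57.2% of all such versions, and 34.8% and 10.1% on pCrx, against 10.5% and 62.3%.

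Single-base changes in dimer windows (414 versions of 12 elements) gave -0.17 ± 0.65 and 0.11 ± 0.68, with 86 and 94 raised and 149 and 62 lowered. Of all such versions 14.7% and 9.01% were raised and 44.8% and 48.3% lowered. In monomer windows (463 versions of 13 elements) they gave -0.03 ± 0.59 and 0.07 ± 0.57, with 129 and 113 raised and 138 and 53 lowered, against 16.1% and 9.45% raised and 37.1% and 35.4% lowered of all. Spacer changes averaged -0.12 ± 0.62 and -0.0037 ± 0.65 in dimer windows (132 versions) and -0.0066 ± 0.52 and 0.09 ± 0.48 in monomer windows (146 versions). Insertions into dimer windows (36 versions) averaged -0.28 ± 0.99 and 0.14 ± 0.77, and deletions in monomer windows (53 versions) 0.12 ± 0.70 and 0.17 ± 0.61. Loss of a K50 site elsewhere in elements of the dimer set (18 versions) gave 0.20 ± 1.07 and 0.42 ± 0.98, and loss of all their sites (11 versions) 0.21 ± 1.03 and 0.65 ± 0.81.

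Mean levels of these versions lay below those of active elements with the same kind of change, with overlapping spreads and no test. With all K50 sites lost, versions of low elements averaged -1.23 ± 0.73 on pRho and -0.52 ± 0.38 on pCrx (SD, 65 versions). The same class averaged -0.23 ± 0.68 and -0.17 ± 0.41 in active elements (SD, 151 versions). Of the 65, 62 were below the typical element on pRho and 57 on pCrx, and 0 were above on either by edgeR, also 0 at an unadjusted p under 0.05 and by DESeq2. Over versions of every class, 46.1% were below on pRho and 39.2% on pCrx, and 42.8% and 36.3% were above. No such share was worked out for this class alone. Without both dimer arms, low elements averaged -1.03 ± 0.90 and -0.39 ± 0.47 and active ones 0.19 ± 0.82 and 0.12 ± 0.73. 

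**Figure D2:**
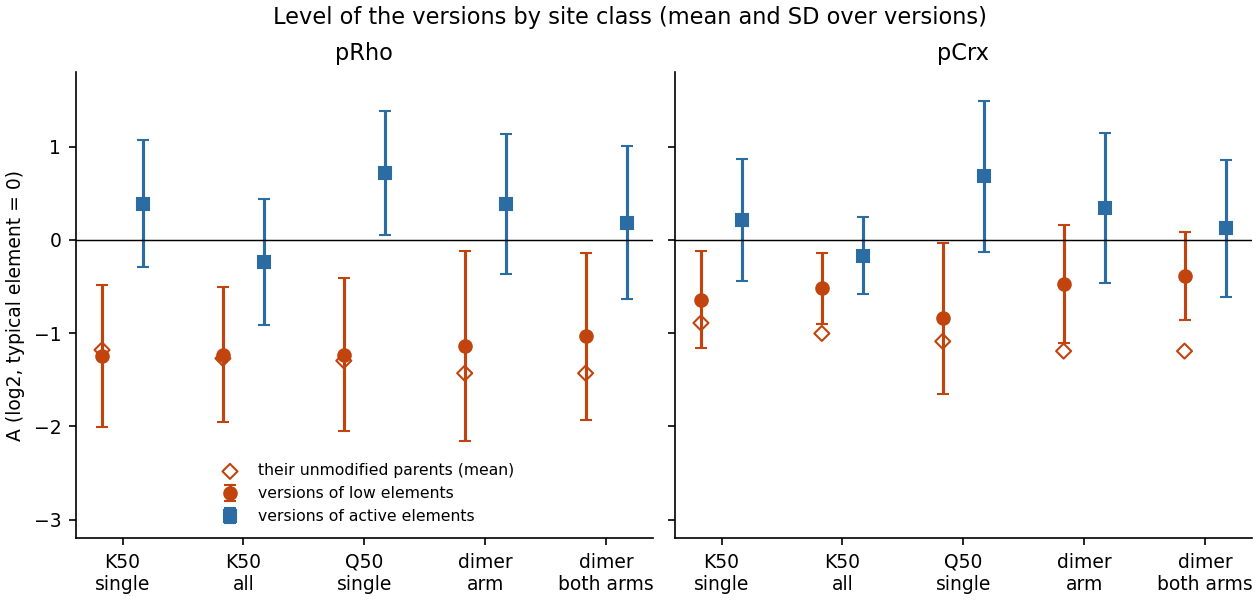
Mean A (y axis, log2, typical element at 0) of versions by class of the changed homeodomain site (x axis), on pRho and pCrx, for low elements (circles) and active elements (squares), with the SD over versions as bars; diamonds give the mean of the low parents. On pCrx the circles with all K50 sites lost, at -0.52, lie above their parents at -1.003, while on pRho they lie at -1.23 beside parents at -1.27.

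To leave the parent's value out, each class was set against the versions of the same element with a single K50 site lost. With all K50 sites lost, 65 low elements averaged 0.06 ± 0.48 higher on pRho and 0.16 ± 0.54 higher on pCrx than with 1 lost (SD over elements), and 34 and 43 of them were higher. In 294 other elements the difference was -0.46 ± 0.56 and -0.30 ± 0.50, and 48 and 84 were higher. With both dimer arms lost, 19 low elements averaged 0.33 ± 0.73 and 0.45 ± 0.79 above their single-site versions, with 13 of 19 higher on each promoter. In 116 other elements the values were -0.19 ± 0.81 and -0.27 ± 0.75, with 47 and 48 higher. Single Q50 losses differed less: 0.23 ± 0.68 and -0.13 ± 0.71 in 16 low elements, against 0.27 ± 0.58 and 0.26 ± 0.65 in 61 others. Low and other elements had been divided by the parent's level, and the differences between them were not tested.

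A closer view came from 25 low elements in which a window of 13 bp was changed base by base, 12 in a set of 100 elements with a dimer site and 13 in a set of 100 with a monomer site. Each window was turned to begin with 1 flanking base and then the sequence nearest to TAATCC. Positions 2 to 5 are called the first core and 9 to 12 the second core, with a spacer in between, and positions 1 and 13 are flanks. Windows of the elements described below are printed in that direction, with both cores of dimer sites and the first core of monomer sites in capitals.
chr7:135012900-135012999, dimer: cTAATcctCTTCc
chr4:53646714-53646813, dimer: tTAATcctCTTTg
chr16:38983129-38983228, dimer: tTAATctgCTTAg
chr13:104839111-104839210, monomer: aTAATcctttttg
chr4:44041516-44041615, monomer: cTAATccctttag
chr16:64873307-64873406, monomer: gTAATcctctcag
chr6:115878974-115879073, monomer: cTAATcctccatt
From position 2, chr13:104839111-104839210 and chr16:64873307-64873406 both read TAATCCT, though their first-core versions lay on opposite sides of their flank versions.

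Versions changed in the first core were compared with versions of the same element changed in a flank, which again leaves the parent out. In dimer sites on pCrx, first-core versions lay 0.17 ± 0.37 above the flank versions in 12 low elements (SD over elements; 9 of 12 higher) and -0.58 ± 0.48 relative to them in 88 other elements (8 of 88 higher). In monomer sites on pCrx the values were 0.34 ± 0.72 (8 of 13) and -0.42 ± 0.51 (17 of 87). At position 4, the second A of the core, the low dimer and monomer means were 0.30 and 0.43, and the others -0.82 and -0.52. On pCrx, changed cores thus lay below the flanks in most other elements and above them in most low elements. Low and other elements had been divided by the parent's level, which the flank versions can share. This contrast can therefore follow in part from that choice, and it was not tested. On pRho the contrast was smaller, at -0.12 ± 0.48 against -0.38 ± 0.50 in dimer and 0.03 ± 0.78 against -0.35 ± 0.40 in monomer sites. There 4 of 12 low and 22 of 88 other elements were higher than their flanks in dimer sites, and 8 of 13 and 17 of 87 in monomer sites, so most low dimer elements lay below the flanks on pRho. Without the element farthest from the median in each case, the low means were -0.21 (dimer, pRho), 0.08 (dimer, pCrx), 0.17 (monomer, pRho) and 0.18 (monomer, pCrx). The elements left out were chr4:53646714-53646813 for both dimer means, and chr16:64873307-64873406 and chr13:104839111-104839210 for the monomer means on pRho and pCrx. The second core of low dimer sites gave -0.16 ± 0.35 on pRho and -0.0049 ± 0.28 on pCrx, against -0.22 ± 0.39 and -0.42 ± 0.44 in the others. On pCrx, spacer versions of low elements lay 0.17 ± 0.41 above the flanks in dimer and 0.32 ± 0.66 in monomer sites. The other elements had -0.47 ± 0.42 and -0.21 ± 0.33 there, so the pCrx rise in low elements was not confined to the first core. Flank positions 1 and 13 of low dimer sites themselves lay at 0.12 and -0.12 on pCrx.

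**Figure D3:**
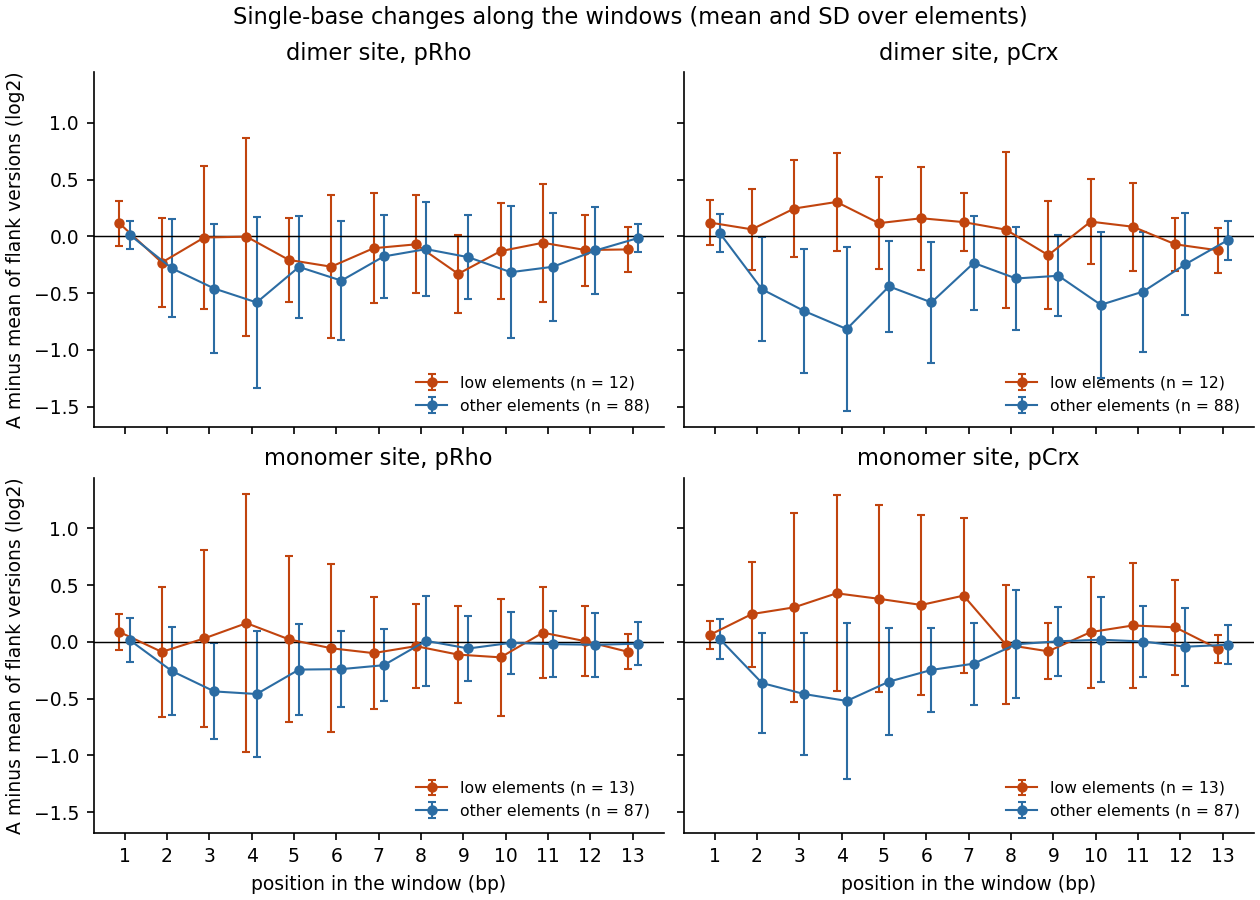
Mean A of single-base versions minus that of the flank versions of the same element (y axis, log2) by position in the 13-bp window (x axis), for dimer (top) and monomer sites (bottom) on pRho (left) and pCrx (right), in low and other elements, with the SD over elements as bars. At position 4 on pCrx the low means are 0.30 and 0.43 and the other means -0.82 and -0.52. The bars there overlap in monomer sites and barely meet in dimer sites.

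Single elements ranged far around these means, and the following values are descriptions without a test. In chr13:104839111-104839210 the 6 flank versions averaged -1.91 ± 0.45 on pRho and -1.51 ± 0.59 on pCrx (SD over versions), and the 12 first-core versions -0.45 ± 0.94 and 0.79 ± 0.97. On pCrx the means of positions 3 to 7 lay 2.21 to 2.74 above the flanks. Versions changed at position 9 lay at -2.39 and -1.95, or -0.48 and -0.44 from the flanks, a distance near the SD of the flank versions. The unmodified parent, at -1.15 and -0.52, lay above the mean of the flank versions on both promoters. In chr4:44041516-44041615 the flank versions averaged -1.43 ± 0.35 and -1.10 ± 0.55 and the first-core versions -0.54 ± 0.75 and -0.13 ± 0.49. On pRho the mean of position 4 was the highest there, at 1.85 above the flanks. On pCrx position 4 lay at 1.51, beside 1.58 at position 10 and 1.35 at position 12, both in the second core. In the dimer element chr4:53646714-53646813 the first-core versions lay 0.91 above the flanks on pRho and 1.23 on pCrx. Of its 56 versions, 56 on pRho and 55 on pCrx were still below the typical element by edgeR.

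Other low elements went the opposite way, mainly on pRho. In chr16:64873307-64873406 the flank versions averaged -0.17 ± 0.20 on pRho and -0.19 ± 0.15 on pCrx, and the first-core versions -1.75 ± 0.45 and -0.64 ± 0.20. Its position 4 lay -2.04 from the flanks on pRho but -0.48 on pCrx. In chr6:115878974-115879073 the first core lay -0.87 from the flanks on pRho and -0.50 on pCrx, and in the dimer element chr16:38983129-38983228 -0.89 and -0.04. On pRho the changed site lay lower than an intact one in each of these elements, although the parent was low already. On pCrx this held for the monomer elements, while the dimer element lay near its flanks (SD over flank versions 0.36). In chr7:135012900-135012999, first-core changes of the dimer window lay -0.19 and 0.01 from the flanks. Of its 59 versions, 2 were above the typical element on each promoter, and both carried T31G, outside that window.

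The unmodified parent was not at one end of its versions. Among the 12 dimer elements the parent was below the median of its versions in 4 on pRho and 6 on pCrx, and among the 13 monomer elements in 6 and 7. The versions spanned from -4.64 to -1.53 on pRho in chr11:101945658-101945757 and from -2.35 to 2.08 on pCrx in chr13:104839111-104839210.

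**Figure D4:**
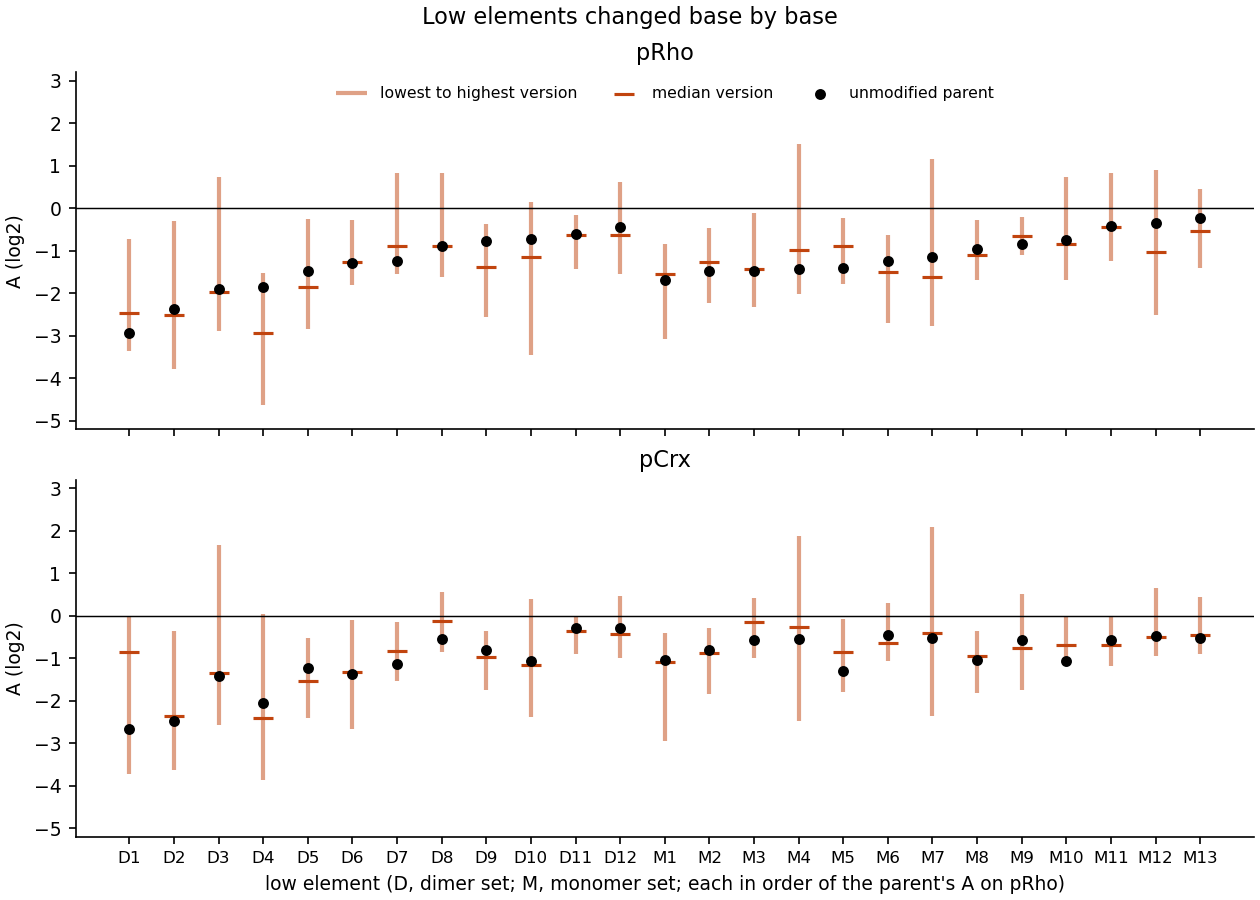
A (y axis, log2, typical element at 0) on pRho and pCrx for the 25 low elements changed base by base (x axis; D1 to D12 dimer set, M1 to M13 monomer set, in order of the parent's A on pRho). Bars run from the lowest to the highest version, dashes mark the median version and dots the unmodified parent; M7, which is chr13:104839111-104839210, reaches 2.08 on pCrx.

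Tested against the summed counts of the other versions of the same element, 371 of 1394 versions of these 25 elements (26.6%) were higher and 547 (39.2%) lower on pRho, against 28.9% and 33.8% of all 11167 versions so tested by edgeR. On pCrx 252 (18.1%) were higher and 360 (25.8%) lower, against 22.3% and 29.6%. These shares lay near those of all elements. The effect differed between the promoters for 545 versions (39.1%), against 38.5% of all, with 280 higher on pCrx and 265 higher on pRho.

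The 8 rises named here are the largest on both promoters against the parent when at most 1 version is taken for each element. In the paragraphs that follow, parent and version are printed around the change, with the changed base in capitals, so that the altered core can be seen; insertions and deletions carry no capitals. In the 8 rises and the 4 falls, all 3 replicates of the version lay outside the range of the parent's replicates on both promoters. Passing the edgeR test on both promoters was a condition of their choice, so these passes and their p-values add no support. The parent's value, which chose the element, enters each effect against the parent. Adjusted p-values from barcodes as units are given where they missed 0.05.

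The largest mean rise was in chr7:135012900-135012999, through a K50 site on the opposite strand (GGATTA reads TAATCC there).
parent: aaaaataggaTtaacagctgc
version T31G: aaaaataggaGtaacagctgc
The parent measured -1.92, -1.99 and -1.74 on pRho and -1.14, -1.50 and -1.65 on pCrx. The version measured 0.73, 0.57 and 0.96 on pRho and 1.83, 1.56 and 1.56 on pCrx. It rose by 2.64 ± 0.13 (SE, 6.23-fold; edgeR adjusted p = 3.9e-24) on pRho and by 3.08 ± 0.14 (8.46-fold; adjusted p = 6.38e-15) on pCrx. Against the other versions of the element, without the parent, it was 2.44 ± 0.09 and 2.91 ± 0.11 higher. The version with A25C as well as T31G reached 0.52 and 1.48.

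A similar loss was seen in chr5:137517461-137517560, in 1 arm of a dimer site.
parent: cccaagctgaTtaagggccat
version T31G: cccaagctgaGtaagggccat
The parent measured -1.46, -1.53 and -1.64 on pRho and -1.71, -2.11 and -1.85 on pCrx, and the version 0.54, 0.26 and 0.57, and 1.06, 0.93 and 0.82. The rise was 2.00 ± 0.11 (SE) on pRho and 2.82 ± 0.15 on pCrx. Of its 9 versions, 3 were below the typical element on pRho and 2 on pCrx. The lowest A of the 9 was -0.83 and -0.78, above every replicate of the parent. Their median was -7.07e-05 on pRho and 0.0058 on pCrx, so the median version also lay far above the parent.

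In the monomer window of chr13:104839111-104839210 the largest single rise was T86C, in the TAAT core read on the opposite strand.
parent: caaaaaggatTatcctcttaa
version T86C: caaaaaggatCatcctcttaa
The parent measured -1.23, -1.06 and -1.15 on pRho and -0.16, -0.66 and -0.73 on pCrx. The version measured 1.31, 0.96 and 1.22 on pRho and 2.06, 2.28 and 1.86 on pCrx, where it was the highest version of the 25 elements. The rise was 2.31 ± 0.13 (SE) and 2.59 ± 0.15, and 2.43 ± 0.10 and 1.93 ± 0.09 against the other versions. In the same window A80G, in the second core, differed from the other versions by -1.39 ± 0.15 on pRho and by -2.53 ± 0.14 on pCrx (edgeR adjusted p = 9.52e-07 and 2.19e-09).

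In chr4:44041516-44041615 a deletion of 3 bp beside the first core gave the largest pRho rise of the 8.
parent: tctgtaaactaaagggattagggtgtaga
version with 3 bp deleted: tctgtaaactaaaattagggtgtagagct
The parent measured -1.50, -1.49 and -1.24 on pRho and -0.48, -0.97 and -0.35 on pCrx, and the version 1.47, 1.74 and 1.37, and 1.43, 1.61 and 1.11. The rise was 2.93 ± 0.13 (SE, 7.60-fold) and 1.96 ± 0.20 (3.89-fold). Single changes of the second A of the core, T74A and T74G on the printed strand, reached 0.48 and 0.65 on pRho and 0.51 and 0.44 on pCrx. The change T66A, in the second core, reached 0.26 on pRho but 1.88 on pCrx. The spacer change G70T differed from the other versions by -1.17 ± 0.07 on pRho and -2.41 ± 0.12 on pCrx.

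The remaining 4 rises started from parents below -2 on both promoters. In the dimer window of chr4:53646714-53646813, T40C changed the first core.
parent: acaaagaggaTtaagagttgt
version T40C: acaaagaggaCtaagagttgt
It rose by 2.22 ± 0.13 (SE) on pRho and 2.29 ± 0.18 on pCrx, to -0.72 and -0.37; over barcodes the pRho effect was 1.44 ± 0.59 (limma adjusted p = 0.0861). Against its other versions T40C was 1.51 ± 0.07 and 0.55 ± 0.09 higher, and the median of all 56 versions lay at -2.46 and -0.84. In chr16:90132819-90132918, T67G changed 1 arm of a dimer site.
parent: tgtaagtggaTtgcaaaataa
version T67G: tgtaagtggaGtgcaaaataa
It rose by 2.28 ± 0.25 and 2.63 ± 0.31, to -0.62 and 0.26, with 1.62 ± 0.61 over barcodes on pRho (limma adjusted p = 0.0601). Its 4 versions lay from -1.20 to -0.62 on pRho, all above the parent's replicates, and the parent had fewer counts than the other elements named here. With both K50 sites of chr4:147545568-147545667 lost, by T21G and T78G, the rises were 1.86 ± 0.12 on pRho and 2.60 ± 0.16 on pCrx. That version lay at -0.62 and 0.25 and its parent at -2.49 and -2.35. All 9 versions of this element were above every replicate of the parent, the lowest at -1.96 (pRho) and -1.69 (pCrx). Their median was -1.36 and 0.15, so on pCrx the double loss lay near the median version. In chr11:72488951-72489050 an insertion of 3 bp into the dimer spacer gave rises of 2.06 ± 0.15 and 2.11 ± 0.29.
parent: tccattaatcctcttaacaatggagtaag
version with 3 bp inserted: tccattaatcctcctcttaacaatggagt
That version measured -0.24, -0.44 and -0.23 on pRho and 0.06, -0.23 and -1.11 on pCrx, the most scattered of the 8, and its pCrx effect over barcodes was 1.22 ± 0.54 (limma adjusted p = 0.0950).

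**Figure D5:**
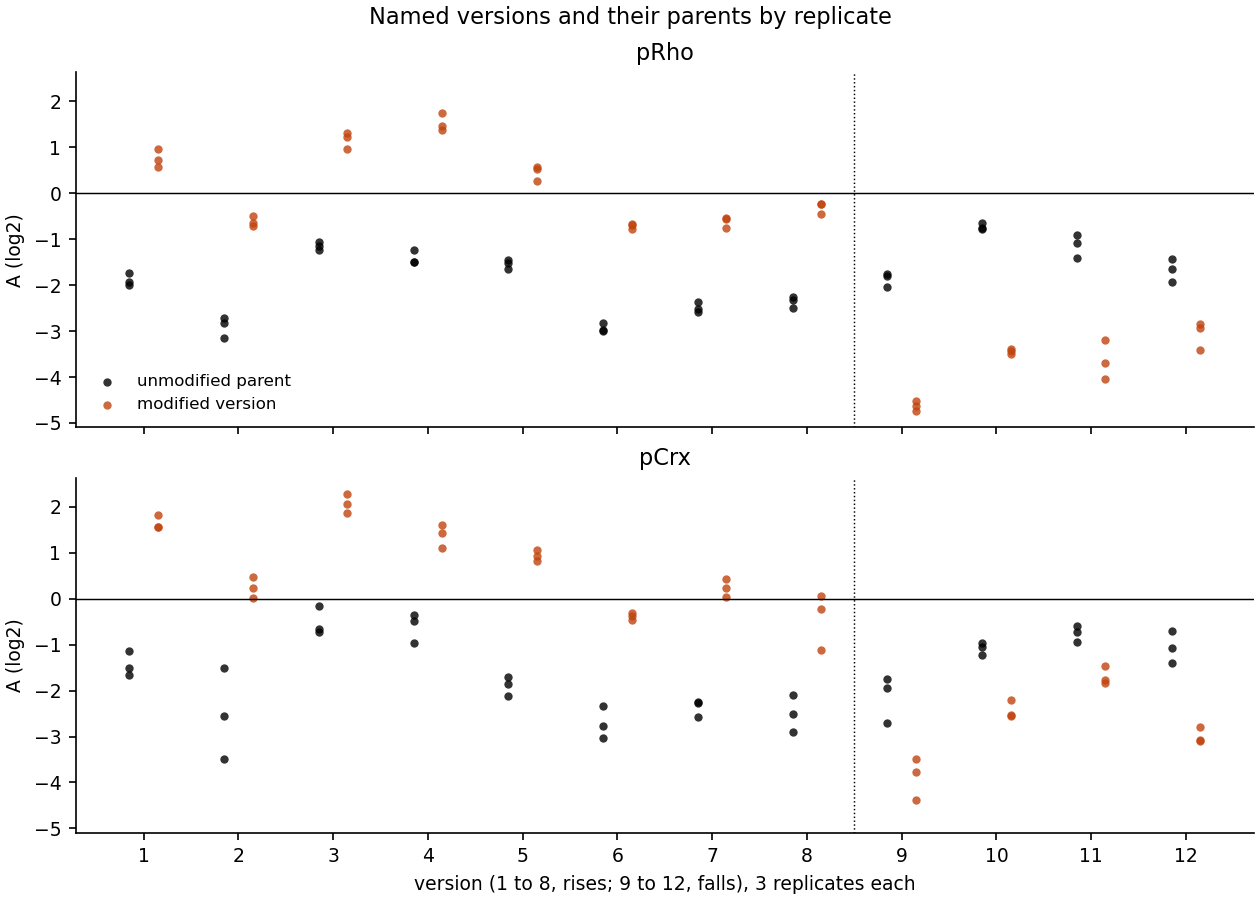
A (y axis, log2, typical element at 0) in each of 3 replicates for 12 named versions and their parents (x axis), on pRho and pCrx. Versions 1 to 8 are the rises, in the order chr7, chr16, chr13, chr4:44041516, chr5, chr4:53646714, chr4:147545568 and chr11:72488951, and 9 to 12 the falls, chr11:101945658, chr2, chr11:78161035 and chr8; replicates of version and parent do not overlap in any of them.

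Low elements could also fall further. In chr11:101945658-101945757, whose dimer window lacks a TAAT core, a change of 2 spacer bases gave the lowest version of the 25 elements on pRho.
parent: aactcctaagCAgcttagagtg
version C78A A79G: aactcctaagAGgcttagagtg
The parent measured -1.80, -1.75 and -2.04 on pRho and -2.70, -1.94 and -1.75 on pCrx. The version measured -4.53, -4.74 and -4.62 on pRho and -3.49, -3.76 and -4.39 on pCrx. It fell by 2.77 (SE 0.17, 6.81-fold lower) on pRho and fell by 1.77 (SE 0.27, 3.42-fold lower) on pCrx; over barcodes the pCrx effect was -1.60 ± 0.64 (limma adjusted p = 0.0691). In chr2:125495585-125495684 a deletion of 1 bp in the dimer spacer was of similar size.
parent: tgactgataatctgcttagtctgcttgtg
version with 1 bp deleted: tgactgataatctcttagtctgcttgtgg
It went from -0.64, -0.76 and -0.79 to -3.40, -3.43 and -3.51 on pRho and from -1.05, -1.23 and -0.96 to -2.55, -2.52 and -2.20 on pCrx. Its effect was -2.71 ± 0.11 and -1.34 ± 0.14, and -2.38 ± 0.08 and -1.39 ± 0.11 against the other versions.

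The other falls were single bases, of which the first was the loss of a K50 site.
chr11:78161035-78161134, parent: acctcccataAtcctatgcac
version A67C: acctcccataCtcctatgcac
chr8:27956015-27956114, parent: taatccctttAtttaaagagc
version A46C: taatccctttCtttaaagagc
The first had effects of -2.49 ± 0.20 (SE) on pRho and -0.93 ± 0.22 on pCrx, to -3.64 and -1.65; over barcodes the pCrx effect was -1.36 ± 0.61 (limma adjusted p = 0.104). The second lies in the second core of a monomer window, outside TAATCC, and had effects of -1.38 ± 0.15 and -1.93 ± 0.19, to -3.07 and -2.96.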

How the data were processed

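The deposited table holds raw counts per barcode for 12 libraries (3 cDNA and 3 DNA for each promoter), as whole numbers. Amplicons were made by PCR, and the labels' protocols name no molecular identifiers. The genome build, mm9, is from the submitters' processing notes; for alignment and counting, tools are not given in the sources used here. A deposited expression table by the authors holds a log2 activity for each element and was used only as an alternative; it held 14584 elements and 208 of the low ones. Their table of comparisons with p-values was not used here. Totals of the DNA libraries were between 31408642 and 35737181 counts (pRho) and between 31198771 and 36500857 (pCrx), and those of the cDNA libraries between 27614797 and 31842705 and between 24726849 and 27659982. The median low element had 2045 to 2487 DNA and 688 to 844 cDNA counts per library.

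Counts of the 100000 barcodes were summed per element. Elements needed 10 DNA counts in each library, which all passed. Tests used edgeR 4.0.16 (quasi-likelihood, TMM) in R 4.3.3 on all elements of a promoter, with Benjamini-Hochberg adjustment and a threshold of 0.05. The adjustment was over all elements for calls against the typical element, and over all versions tested for the other tests. The tests against other versions needed 10 others. DESeq2 1.42.0, limma 3.58.1 on barcodes (pseudocount 1), other scalings and left-out replicates were alternatives. The scripts were tested on simulated data. Site classes with at least 10 versions of low elements are described. Named were the 6 deepest elements, the 8 largest rises and 4 largest falls against the parent that passed on both promoters, the 4 largest of each against other versions, and the 4 largest promoter differences, 1 for each element; other elements were named after their values were seen. For 10 windows of the base-by-base sets both directions matched equally well, so their orientation is uncertain. The members, motif lists and rules were chosen with earlier results of these data known.

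RNA and DNA of a replicate come from 1 pool, per the labels, so the replicate number pairs cDNA and DNA within a promoter; deviations of paired libraries correlated at -0.04 to 0.05. Across promoters it is only a number. The replicates are separate pools of retinas, and the edgeR p-values measure the spread between them. Those from limma, over barcodes with counts summed over replicates, measure the spread between barcodes, which edgeR's do not cover.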

Additional observations from a re-analysis of the deposited data

Results flagged for a closer look

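The effects of 4 changes in low elements differed between the promoters by a test of the difference itself, the interaction of promoter, version and cDNA against DNA in edgeR, with the other versions of the element as the reference. They are the largest such differences in the base-by-base sets, at most 1 for each element, out of 545 versions that passed.

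In chr11:101945658-101945757, T82A in the second core of the dimer window had an effect 2.38 ± 0.30 (SE, log2) higher on pCrx than on pRho. The version measured -4.24, -4.89 and -4.79 on pRho and -1.30, -2.54 and -1.58 on pCrx. In chr4:53646714-53646813, A32T in the second core of the dimer window had an effect lower on pCrx, with a difference of -2.31 ± 0.22; the version measured -2.91, -2.64 and -2.55 on pRho and -3.26, -4.62 and -3.63 on pCrx. In chr2:125495585-125495684, an insertion of 2 bp in the dimer spacer differed by 1.89 ± 0.11, from -3.22, -3.34 and -3.33 on pRho to -1.36, -1.38 and -1.42 on pCrx. In chr16:64873307-64873406, T50C in the first core of a monomer window differed by 1.74 ± 0.14. That version measured -2.37, -2.58 and -2.55 on pRho and -0.46, -0.18 and -0.73 on pCrx, where the parent lay between -0.66 and -0.38.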

How the results depend on the processing

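The number of low elements was 213 with the median over barcodes, 212 without each element's barcode of highest ratio, 210 with the authors' deposited log2 values and 146 with a limit of -0.5. With total-count scaling 26 versions were above the typical element on pRho and 27 on pCrx, and with the limit of -0.5 the pRho count was 28. With barcodes as units 164 and 270 versions were raised against the parent on pRho and pCrx, and 205 and 44 lowered; the limit of -0.5 left 374 lowered on pRho, from fewer elements. Mean class effects with that limit were -0.0068 and 0.38 (single K50 loss, pRho and pCrx), 0.23 and 0.71 (all K50 sites), 0.67 and 1.15 (both dimer arms) and 0.20 and 0.32 (single Q50 loss). Without the barcode of highest ratio they were 0.27 (single K50 loss, pCrx), 0.53 and 0.96 (both dimer arms) and 0.15 (single Q50 loss, pRho); the cause was not tested. With the replicate block, 508 versions were raised and 596 lowered against the parent on pRho, and 531 and 218 on pCrx, and no other count moved by over 1.5 times. Of the named effects, 5 did not pass with barcodes as units, and no result changed direction. No element had under 16 DNA counts in a library, so removing the filter at 10 changed nothing. Without molecular identifiers, errors from counts cover counting alone.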
